A study of Mus musculus with 4 samples.

Results

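Planar cell polarity and ROR genes were examined as a group of 10 genes taken by symbol from a table of 56748 mouse genes: Ror1, Ror2, Fzd3, Fzd6, Vangl1, Vangl2, Celsr1, Celsr2, Prickle1 and Scrib. These members were selected from the signaling pathway with the fold changes of these samples already known, so their values between the groups are a description and carry no test. The samples came from lungs of female BALB/cJ mice, 7 weeks of age at injection, injected through the tail vein with 4T1-FLuc cells, a mouse line of triple-negative breast cancer that carries luciferase. The control group, called saline in the sample names and PBS in the labels, had 2 samples. The ADC/cmLumiOpto group had 2 samples from mice given 16 mg/kg of an anti-CD276 antibody carrying the microtubule inhibitor mertansine (DM1), as the labels state, together with cmLumiOpto, a gene therapy that puts a light-gated channel into the mitochondria of cancer cells, where light from a luminescent substrate opens it and depolarizes them. The labels write the treatment as cmLumi-Olap & CD276-DM1, leave Olap unexplained, and give 3 weeks of treatment. The methods of the study give a lower dose of the conjugate and dissociated lung tissue, whereas the labels give harvested tumor cells. No samples treated with the conjugate or the gene therapy alone were analyzed here, so the parts of the combination cannot be told apart.

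Planar cell polarity is the alignment of cells within the plane of a tissue, set by transmembrane proteins that sort to opposite sides of each cell. CELSR cadherins bind across cell borders, Frizzled receptors gather on one side with Dishevelled, and VANGL proteins gather on the other with Prickle. ROR1 and ROR2 are receptor tyrosine kinases of low catalytic activity that bind WNT5A and pass its signal to this machinery, and in carcinomas the branch is known for its part in cell migration and invasion.

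The libraries held between 15263375 and 19675436 counts, and 3 counts, taken as a floor for counting error only, corresponded to between 0.152 and 0.197 CPM, the counts scaled to library size with TMM, the trimmed mean of M values. All 10 genes passed the expression filter, as did 15320 genes in total. The epithelial keratin gene Krt8 averaged 1342 ± 284 CPM with saline and 1124 ± 9.83 CPM with treatment (SD, n = 2 each). Epcam averaged 161 ± 20.3 and 183 ± 64.0 CPM (SD, n = 2 each). These epithelial genes were present in every sample, but they do not separate tumor from lung epithelium. The summed level of 5 carcinoma epithelium markers was 2584 and 2978 CPM in the saline pair and 2536 and 2450 CPM in the treated pair. Of these 5 genes, 2 were lower and 1 was higher without overlap, against 28.8% and 28.1% of all tested genes. Markers of lung and stroma were present as well. The summed level of 8 fibroblast and mural markers was 5277 and 3692 CPM in the saline pair and 1856 and 1511 CPM in the treated pair. All 8 genes were lower on average and 7 of 8 without overlap, where 28.8% of all tested genes were lower without overlap. Lung markers were higher in the treated samples: Sftpc of alveolar type 2 cells averaged 595 ± 596 CPM with saline and 3873 ± 632 CPM with treatment, and Ager of alveolar type 1 cells 91.4 ± 62.7 and 400.3 ± 30.8 CPM (SD, n = 2 each). The sums of club-cell markers (79.1 to 1145 CPM with saline, 2944 to 6188 CPM with treatment) and leukocyte markers (1271 to 1959 and 3123 to 4732 CPM, Ptprc among them) did not overlap either, while the sums of endothelial markers (335 to 411 and 393 to 588 CPM) and of mesothelial markers with Msln (125 to 217 and 131 to 176 CPM) did. Of the 4 endothelial markers, Pecam1 and Cldn5 were higher in the treated samples without overlap, as were 28.1% of all tested genes. In bulk samples such as these, fewer cells of a type and less RNA per cell cannot be told apart.

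Between the groups, Ror1, Ror2 and Vangl2 were lower by more than 2.0-fold in the treated samples, while Fzd6, Fzd3 and Vangl1 were lower by smaller margins. Celsr2 was higher, Celsr1 and Scrib had nearly equal means, and Prickle1 varied between the treated samples. The median log2 fold change of the 10 genes was -0.57, against 0.028 over all genes tested, with 8 genes below 0 and 2 above. In 6 of the 10 genes the treated pair lay entirely under the saline pair, and in 1 gene both lay above. Over all tested genes these shares were 28.8% and 28.1%, and nothing is read from the comparison because the genes were chosen with this contrast in view. With edgeR's quasi-likelihood test and Benjamini-Hochberg adjustment, 0 of 15320 genes (0%) passed a threshold of 0.05, the smallest adjusted p being 0.116. At an unadjusted p under 0.05, 12.2% of all tested genes were lower and 11.0% higher. After adjustment, the edgeR exact test called 3.68% lower and 3.96% higher, and DESeq2 called 5.72% lower and 4.28% higher. No call is given for the 10 genes themselves. With 2 samples against 2, an exact permutation test of a single gene cannot give a two-sided p under 0.333.

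**Figure D1:**
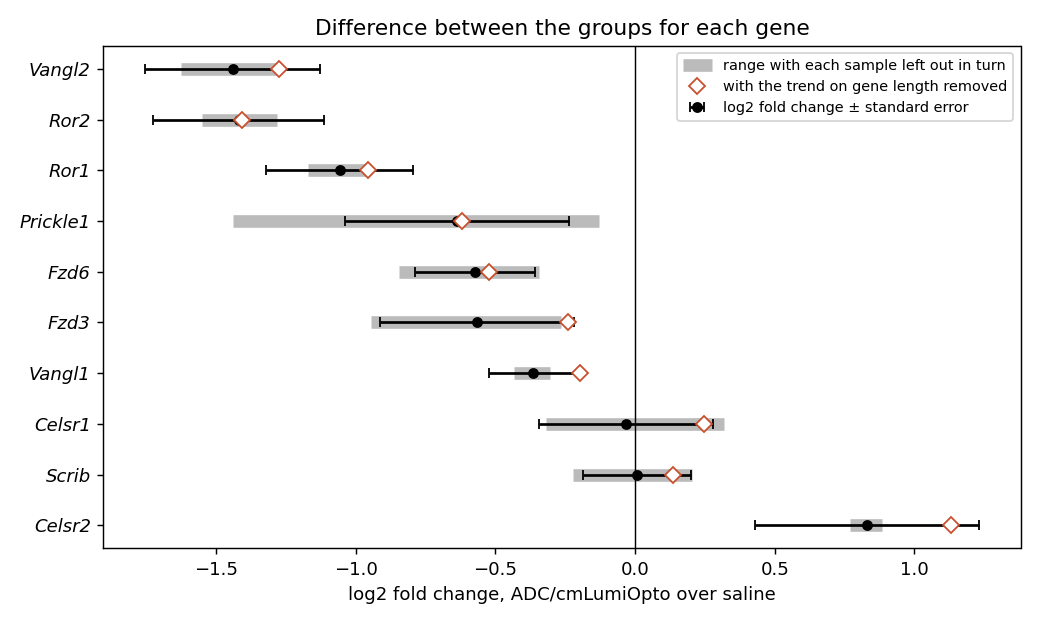
Log2 fold changes (ADC/cmLumiOpto over saline) of the 10 genes from the edgeR fit, with bars for the standard error, grey bands for the range with each sample left out in turn, and diamonds for the value after removal of the trend on gene length. Vangl2 (-1.44), Ror2 (-1.42) and Ror1 (-1.06) stand farthest below 0, Celsr2 (0.83) is the one clear of 0 on the other side, and the widest band belongs to Prickle1 (-1.44 to -0.13).

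The plot of log2 fold changes orders the genes and shows how far each depended on a single sample or on gene length. Longer genes had lower fold changes across the whole table (Spearman's rho of -0.34 over genes, which are not independent replicates). The members were long, with a median gene length of 6721 bases against 4113 for the tested genes. With the length trend removed, their median log2 fold change was -0.38, and the values of Ror1, Ror2 and Vangl2 remained at -0.95, -1.41 and -1.27.

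The ROR receptors are described first. Ror1 (ENSMUSG00000035305, listed at chr4:99952988-100301962 on the plus strand, mm39 per the submitters' processing notes) is an oncofetal receptor that is scarce in most adult tissues. It had 215 and 230 counts in the saline pair and 117 and 149 in the treated pair, or 13.4, 15.5, 6.63 and 7.27 CPM. Both treated samples lay well below both saline samples, and each group was tight. The means were 14.5 ± 1.46 and 6.95 ± 0.449 CPM (SD, n = 2 each), a log2 fold change of -1.06 (SE of the fit 0.26), or 2.08-fold lower, and the value ranged from -1.17 to -0.95 as single samples were left out.

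Ror2 (ENSMUSG00000021464, chr13:53263348-53440160, minus strand) is the WNT5A receptor best known from skeletal and limb development. Its counts were 181 and 138 in the saline pair and 68 and 79 in the treated pair, or 11.3, 9.30, 3.85 and 3.85 CPM. The treated samples were almost identical after scaling, and neither reached the lower saline sample. The means were 10.3 ± 1.42 and 3.85 ± 0.00104 CPM (SD, n = 2 each), and the log2 fold change of -1.42 (SE 0.31), or 2.67-fold lower, ranged from -1.55 to -1.28 as single samples were left out. Both receptors are known from mesenchymal cells as well as from tumor cells. The fibroblast markers Col1a1 and Pdgfra, a collagen and a growth factor receptor of fibroblasts, had log2 fold changes in the same samples of -2.02 (SE 0.24) and -0.81 (SE 0.17), and their part in the values of Ror1 and Ror2 was not tested.

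The region before the start of Ror1, Ror2 and Vangl2 is shown because these 3 genes were lower together. Promoter entries from RefSeq (GRCm38.p6) matched 5 of the 10 members, with Prickle1 entered at separate starts, and the 250 bases before the start are printed 5′ to 3′ on the strand of the gene, with positions on that build that cannot be set beside those of the count table. Capitals mark matches, on either strand, to 5 motifs: the GC box (GGGCGG), the CCAAT box (CCAAT), the TATA box (TATAAA), the TCF/LEF core (CTTTGA) and the AP-1 site (TGANTCA).
Ror1, chr4:100095541-100095790, plus strand: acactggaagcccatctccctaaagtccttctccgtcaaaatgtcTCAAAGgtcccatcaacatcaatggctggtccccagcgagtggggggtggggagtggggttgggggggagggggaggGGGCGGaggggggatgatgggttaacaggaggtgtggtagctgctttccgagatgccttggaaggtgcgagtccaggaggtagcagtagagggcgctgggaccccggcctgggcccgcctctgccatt
Ror2, chr13:53286125-53286374, minus strand: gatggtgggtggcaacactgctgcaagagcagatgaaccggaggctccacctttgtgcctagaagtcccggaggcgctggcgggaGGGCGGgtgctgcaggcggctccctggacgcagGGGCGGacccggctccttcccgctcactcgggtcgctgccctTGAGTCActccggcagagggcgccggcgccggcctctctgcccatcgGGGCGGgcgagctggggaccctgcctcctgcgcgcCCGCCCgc
Vangl2, chr1:172027296-172027545, minus strand: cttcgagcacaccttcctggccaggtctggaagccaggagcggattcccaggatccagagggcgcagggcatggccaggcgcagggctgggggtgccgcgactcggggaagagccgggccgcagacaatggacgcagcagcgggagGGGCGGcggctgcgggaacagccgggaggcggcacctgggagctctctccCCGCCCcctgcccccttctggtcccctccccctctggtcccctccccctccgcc
The Ror1 stretch held a TCF/LEF match that begins 205 bases before the start and a GC box at 128 bases. The Ror2 stretch held 4 GC boxes, at 165, 132, 43 and 8 bases before the start, and an AP-1 match at 90 bases, and Vangl2 held GC boxes at 104 and 54 bases. Matches to different motifs did not overlap. Among 32851 promoters of the same length, 32.7% held a GC box, 33.8% a CCAAT box, 12.4% a TATA box, 13.8% a TCF/LEF match and 6.75% an AP-1 match. G and C made up 62.4% of the Ror1 bases, 73.2% of the Ror2 bases and 73.6% of the Vangl2 bases, against a median of 52.4% over all promoters. The entries of Prickle1, whose groups overlapped, had 60.8% and 74%, with 2 and 3 GC boxes. The entry of Celsr2, which was higher in the treated samples, had 75.2% and 0 GC boxes. A high share of G and C was thus not particular to the 3 lower genes. A match is a description of letters and says nothing of binding. The entry of Celsr2 is not printed, since the bases after its start were not found in a GENCODE transcript of the gene.

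The Frizzled receptors of the group were Fzd3 and Fzd6, the vertebrate Frizzled proteins most closely tied to planar polarity. Fzd6 (ENSMUSG00000022297, chr15:38869429-38901583, plus strand), needed for the orientation of hair follicles, had 2347 and 2539 counts in the saline pair and 1566 and 2563 in the treated pair, or 147, 171, 88.8 and 125 CPM. The treated pair lay entirely under the saline pair, but replicate 1 of the treated group lay much lower than replicate 2. The means were 159 ± 17.3 and 107 ± 25.6 CPM (SD, n = 2 each), a log2 fold change of -0.57 (SE 0.21), which was -0.85 without treated replicate 2 and -0.35 without treated replicate 1. An antisense lncRNA, Gm26704, overlaps Fzd6 and had between 1 and 11 counts, and Gm16160, antisense to Vangl1, had between 0 and 2. The labels name both a stranded and an unstranded preparation, and without strand the reads of such genes cannot be told apart.

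Fzd3 (ENSMUSG00000007989, chr14:65429898-65499912, minus strand), known from axon guidance, was far scarcer, with 151 and 122 counts in the saline pair and 130 and 94 in the treated pair. After scaling these were 9.44, 8.22, 7.37 and 4.58 CPM, so the groups did not overlap, but the gap between the nearest samples was smaller than the distance between the treated samples. The means were 8.83 ± 0.860 and 5.98 ± 1.97 CPM (SD, n = 2 each), and the log2 fold change of -0.57 (SE 0.35) was -0.94 without treated replicate 1 and -0.27 without treated replicate 2. Fzd3 had the longest gene model of the members, 12804 bases, and its log2 fold change was -0.24 with the length trend removed.

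The 4 remaining transmembrane members were the VANGL proteins and the CELSR cadherins. Vangl2 (ENSMUSG00000026556, chr1:171828527-171856011, minus strand), mutated in the looptail mouse with its open neural tube, had 160 and 156 counts in the saline pair and 75 and 68 in the treated pair, the latter being 4.25 and 3.32 CPM. Every treated value was under every saline value by a wide margin. The means were 10.3 ± 0.362 and 3.78 ± 0.661 CPM (SD, n = 2 each), and the log2 fold change was -1.44 (SE 0.31), or 2.71-fold lower, with a range of -1.63 to -1.27 when each sample was left out.

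Vangl1 (ENSMUSG00000027860, chr3:102060899-102112009, minus strand), its close paralog, was more abundant, at 876 and 823 counts in the saline pair and 791 and 836 in the treated pair. The corresponding 54.8, 55.5, 44.8 and 40.8 CPM placed the treated samples a little under the saline samples. The means were 55.1 ± 0.502 and 42.8 ± 2.87 CPM (SD, n = 2 each), a log2 fold change of -0.37 (SE 0.16) that became -0.20 with the length trend removed.

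Celsr1 (ENSMUSG00000016028, chr15:85783130-85918404, minus strand), the CELSR cadherin of epithelia, had 301 and 178 counts in the saline pair and 223 and 359 in the treated pair, or 18.8, 12.0, 12.6 and 17.5 CPM. The groups overlapped fully, and replicates differed more than the group means of 15.4 ± 4.82 and 15.1 ± 3.44 CPM (SD, n = 2 each). Its log2 fold change was -0.03 (SE 0.31), with a range of -0.32 to 0.32 when each sample was left out. It took the opposite sign under 6 of the 12 alternative settings.

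Celsr2 (ENSMUSG00000068740, chr3:108298167-108323383, minus strand), a cadherin of neurons and of ciliated epithelia, was the rarest member, with 33 and 28 counts in the saline pair and 63 and 71 in the treated pair. These were 2.06, 1.89, 3.57 and 3.46 CPM, and both treated samples were higher than both saline samples. The means were 1.98 ± 0.124 and 3.52 ± 0.0765 CPM (SD, n = 2 each), a log2 fold change of 0.83 (SE 0.40), or 1.78-fold higher, and 1.13 with the length trend removed. The sum of 4 ciliated-cell markers was 5.94 and 2.36 CPM in the saline pair and 13.8 and 14.1 CPM in the treated pair, with the ciliary regulator Foxj1 at 4.06, 1.15, 7.20 and 7.12 CPM. All 4 markers were higher on average and 3 did not overlap, where 28.1% of all tested genes were higher without overlap. Dnah5 had 0 counts in saline replicate 2, and the part of these cells in the value of Celsr2 was not tested.

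The cytoplasmic members were Prickle1 and Scrib. Prickle1 (ENSMUSG00000036158, chr15:93396995-93493772, minus strand), a LIM-domain partner of VANGL, had 518 and 583 counts in the saline pair and 234 and 672 in the treated pair. Expressed as 32.4, 39.3, 13.3 and 32.8 CPM, these values put treated replicate 2 within the saline range and treated replicate 1 far beneath it. The means were 35.8 ± 4.89 and 23.0 ± 13.8 CPM (SD, n = 2 each). The log2 fold change of -0.64 (SE 0.40) was -1.44 without treated replicate 2 and -0.13 without treated replicate 1.

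Scrib (ENSMUSG00000022568, chr15:75919007-75941633, minus strand), a scaffold of the basolateral membrane that binds VANGL2, had 972 and 945 counts in the saline pair and 944 and 1470 in the treated pair, or 60.8, 63.7, 53.5 and 71.7 CPM. The treated samples lay on either side of the saline samples. The means were 62.2 ± 2.07 and 62.6 ± 12.9 CPM (SD, n = 2 each), with a log2 fold change of 0.01 (SE 0.19) and a range of -0.22 to 0.21 with each sample left out.

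**Figure D2:**
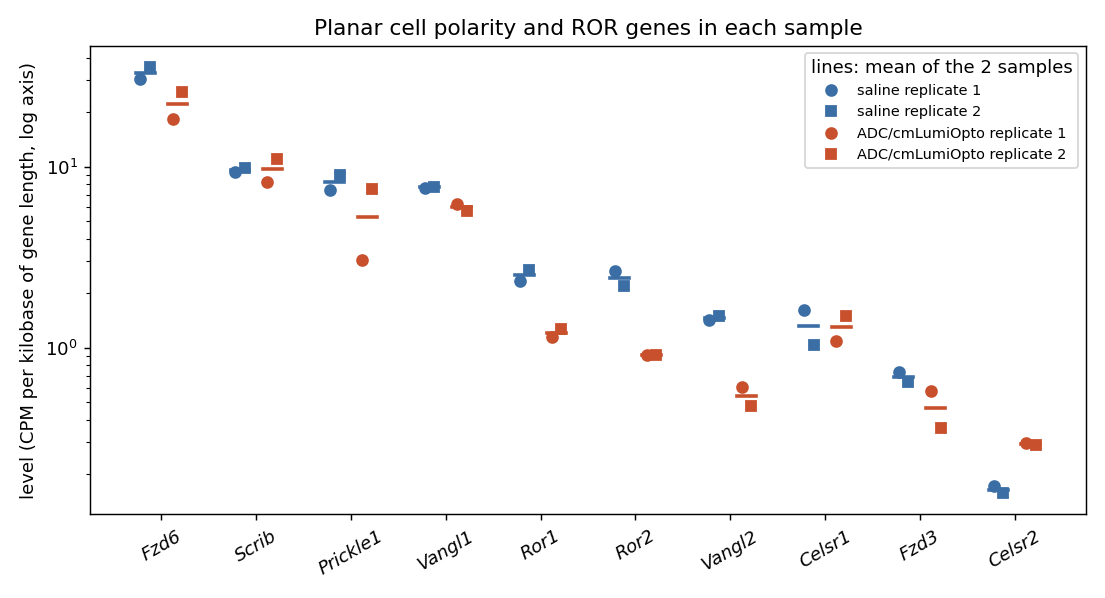
Levels of the 10 genes in each sample, in CPM per kilobase of gene length on a log axis, ordered by the mean of the saline group; blue marks are saline, orange marks ADC/cmLumiOpto, and short lines are group means. Fzd6 was highest at 33.0 in the saline group and Celsr2 lowest at 0.164, while Ror1, Ror2 and Vangl2 show the widest separation between the colors.

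Levels were compared between genes per kilobase of gene length, as in the plot of levels by sample. In the saline group Fzd6 had the highest level, 33.0 CPM per kilobase, followed by Scrib at 9.65, Prickle1 at 8.25, Vangl1 at 7.70, Ror1 at 2.51, Ror2 at 2.43, Vangl2 at 1.47, Celsr1 at 1.32, Fzd3 at 0.690 and Celsr2 at 0.164. Samples overlapped between Prickle1 and Vangl1, between Ror1 and Ror2 and between Vangl2 and Celsr1, so these neighbors did not differ beyond their spread. The other neighbors had no overlapping samples. In the treated group the level of Fzd6 was 22.2, that of Scrib 9.70, Vangl1 5.98, Prickle1 5.30, Celsr1 1.30, Ror1 1.21, Ror2 0.908, Vangl2 0.541, Fzd3 0.467 and Celsr2 0.292. There the samples of Vangl1 and Prickle1, of Celsr1 and Ror1, and of Vangl2 and Fzd3 overlapped. Celsr1 thus stood at rank 8 in the saline group and at rank 5 in the treated group, and Ror1, Ror2 and Vangl2 each stood 1 rank lower. The highest level exceeded the lowest by 201-fold in the saline group and by 75.9-fold in the treated group. The order of the scarcer genes depends on the length used: by the span from start to end, Ror1 ranked 10, Ror2 9 and Celsr2 8 in the saline group, while Fzd6 and Scrib kept ranks 1 and 2.

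Paralogs were set against each other within each sample, which removes the scaling between libraries. The ratio of Vangl1 to Vangl2 per length was 5.35 and 5.15 in the saline pair and 10.3 and 12.0 in the treated pair. It was higher in both treated samples, by 1.07 on the log2 scale, since Vangl2 was lower by a larger factor than Vangl1. The ratio of Celsr1 to Celsr2 was 9.43 and 6.57 in the saline pair and 3.66 and 5.23 in the treated pair, lower in both treated samples, a log2 change of -0.86. Its nearest samples lay closer together across the groups than the samples within either group. The ratio of Ror1 to Ror2 was 0.874 and 1.23 in the saline pair and 1.27 and 1.39 in the treated pair. The gap between the nearest samples of the groups was small beside the distance between the saline samples. For Fzd6 to Fzd3 the ratio was 41.3 and 55.3 in the saline pair and 32.01 and 72.5 in the treated pair, and the groups overlapped.

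**Figure D3:**
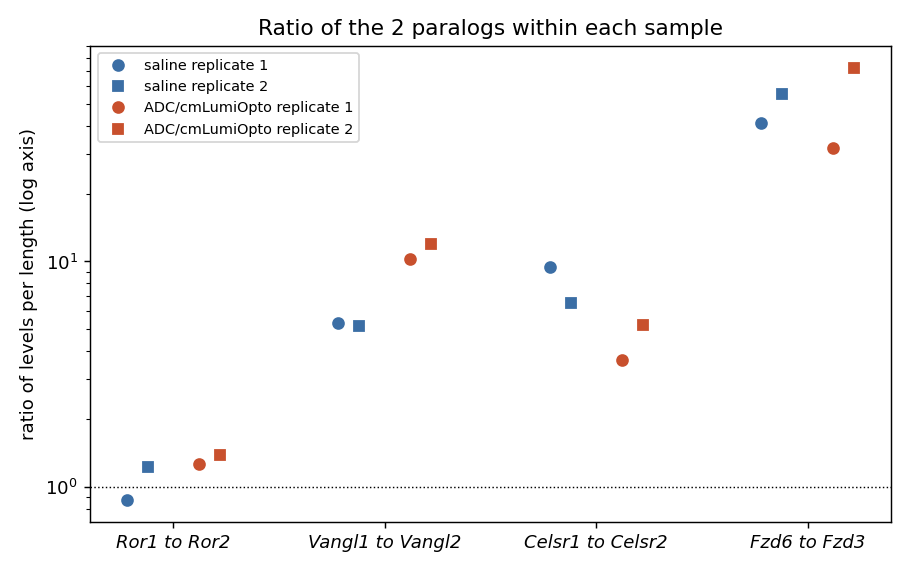
Ratio of the levels per length of 4 paralog pairs within each sample, on a log axis with a dotted line at equal levels; blue marks are saline and orange marks ADC/cmLumiOpto. The Vangl1 to Vangl2 ratio was 5.35 and 5.15 in saline and 10.3 and 12.0 in treated samples, whereas the Fzd6 to Fzd3 ratios overlap.

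Of the members, 4 lie on chromosome 15 (Fzd6, Scrib, Celsr1 and Prickle1), a chromosome that held 3.91% of the tested genes, and all 4 were higher in treated replicate 2 than in treated replicate 1. The log2 differences between these replicates were 1.30 for Prickle1, 0.49 for Fzd6, 0.47 for Celsr1 and 0.42 for Scrib. The members on other chromosomes differed by 0.13 (Ror1), -0.00053 (Ror2), -0.043 (Celsr2), -0.14 (Vangl1), -0.35 (Vangl2) and -0.67 (Fzd3). Over the 599 tested genes of chromosome 15 the median difference was 0.16, the highest of the 20 chromosomes compared, against 0.015 over the genes of the other chromosomes, and 63.6% of its genes were higher in replicate 2 against 51.5% elsewhere. Between the saline replicates the median of chromosome 15 was 0.0089, rank 8 of the 20. This split was looked for after the values of the members had been seen, and what underlies it was not tested.

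**Figure D4:**
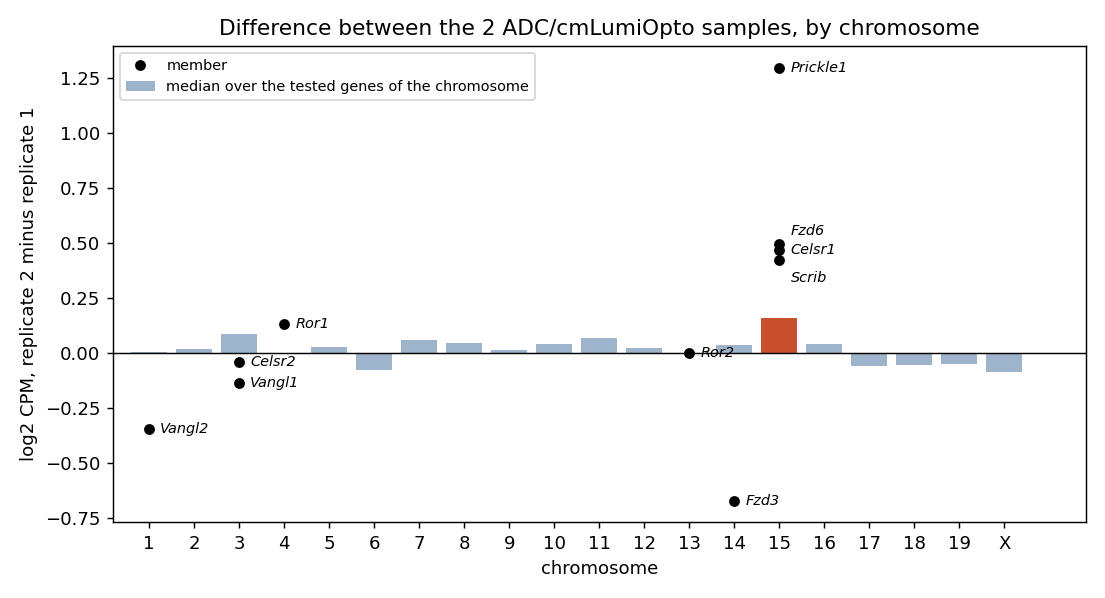
Differences in log2 CPM between the ADC/cmLumiOpto samples (replicate 2 minus replicate 1): bars give the median over the tested genes of each chromosome, with chromosome 15 in orange, and points give the 10 members. Chromosome 15 has the highest bar (0.16), and its 4 members lie between 0.42 and 1.30.

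The other genes of the pathway were taken as 72 genes in 6 lists by role, with no member among them, chosen like the members with earlier results of these samples known, and 64 were tested. Their median log2 fold change was -0.24, against 0.028 over all genes, with 42 below 0 and 22 above. With the length trend removed the median was -0.11. In edgeR's quasi-likelihood test 0 passed after adjustment, and at an unadjusted p under 0.05 there were 18 lower and 3 higher, where 12.2% of all tested genes were lower and 11.0% higher. The exact test and DESeq2 each placed 10 lower and 1 higher after adjustment, beside shares over all genes of 3.68% and 3.96% in the exact test and 5.72% and 4.28% in DESeq2. In 32 of the 64 genes the treated pair lay entirely under the saline pair and in 8 entirely above it, against 28.8% and 28.1% of all genes.

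**Figure D5:**
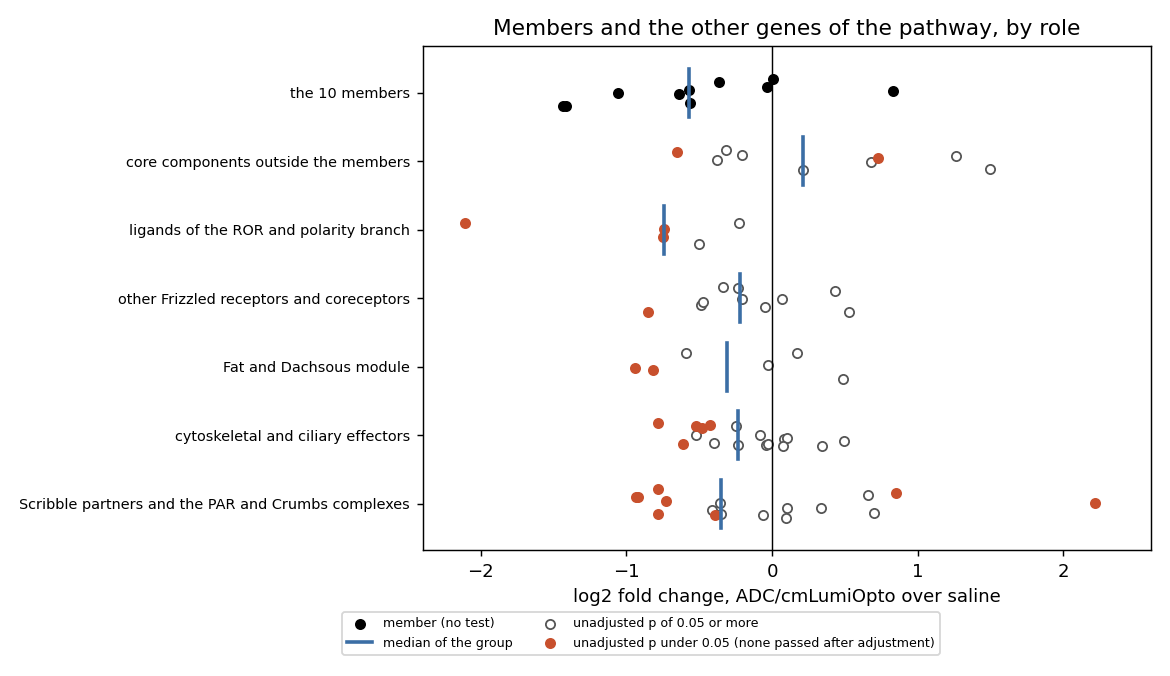
Log2 fold changes (ADC/cmLumiOpto over saline) of the 10 members and of 64 other planar cell polarity genes in 6 lists by role; filled orange points had an unadjusted p under 0.05 in edgeR's quasi-likelihood test, black points are members without a test, and blue lines are medians. The ligands have the lowest median (-0.74), and the core components outside the members are the one list with a median above 0 (0.22).

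The plot of the lists by role shows the spread within each. All 5 tested ligands were below 0, with a median of -0.74 (-0.55 with the length trend removed), and 3 had an unadjusted p under 0.05, against 12.2% of all tested genes in this direction. Wnt5a, the ligand of ROR1 and ROR2, was at 16.6 and 10.99 CPM in the saline pair and 8.05 and 8.39 CPM in the treated pair. Its log2 fold change was -0.75 (SE 0.30), with edgeR's quasi-likelihood adjusted p at 0.204, the exact test's at 0.209 and DESeq2's at 0.186. The groups did not overlap, and the saline samples differed more than the treated ones. Wnt11 had a log2 fold change of -0.50 (SE 0.39) and Wnt5b of -0.23 (SE 0.62). Wnt4, named after its value was seen, stood lowest in the list, at 42.6 and 49.7 CPM in the saline pair and 7.48 and 13.9 CPM in the treated pair, a log2 fold change of -2.11 (SE 0.31, edgeR's quasi-likelihood test, adjusted p = 0.116; adjusted p = 3.3e-06 in the exact test and 4.34e-07 in DESeq2).

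Among 9 tested core components outside the members, 4 were below 0 and 5 above, with a median of 0.22 (0.27 with the length trend removed). Ptk7, a catalytically inactive receptor kinase that acts with ROR2, was at 188 and 199 CPM in the saline pair and 128 and 118 CPM in the treated pair. Its groups were far apart relative to their spread, with a log2 fold change of -0.65 (SE 0.16) and edgeR's quasi-likelihood adjusted p at 0.123, or 0.0496 in the exact test and 0.0143 in DESeq2. The Dishevelled genes, whose proteins carry the signal from Frizzled into the cell, had log2 fold changes of 0.22 for Dvl1, -0.21 for Dvl2 and -0.38 for Dvl3, with SEs between 0.22 and 0.28. Celsr3, Prickle2 and Prickle3, the paralogs of members, had log2 fold changes of 1.498, 0.68 and 1.27. In each of them the value rested on treated replicate 2, in which they reached 5.02, 10.9 and 6.24 CPM, while the other 3 samples held 0.688 to 1.48 CPM of Celsr3, 4.31 to 5.56 CPM of Prickle2 and 0.944 to 2.19 CPM of Prickle3. Without that sample their log2 fold changes were -0.01, -0.02 and -0.27.

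The other Frizzled receptors and coreceptors had a median of -0.22 (-0.15 with the length trend removed) over 10 tested genes, 7 below 0 and 3 above. Fzd1 was at 84.7 and 57.3 CPM in the saline pair and 41.5 and 37.3 CPM in the treated pair, a log2 fold change of -0.85 (SE 0.22) with edgeR's quasi-likelihood adjusted p at 0.123, the exact test's at 0.0331 and DESeq2's at 0.0248. It was the receptor of this list with the lowest value. Fzd2 had a log2 fold change of -0.49 (SE 0.22), Fzd7 of -0.24 (SE 0.18) and Ryk, a WNT coreceptor of the kinase-dead type, of -0.34 (SE 0.18).

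In the Fat and Dachsous module, a parallel polarity system of giant cadherins, 4 of 6 tested genes were below 0, with a median of -0.31, or -0.073 with the length trend removed. Fat1 was at 257 and 292 CPM in the saline pair and 155 and 156 CPM in the treated pair, a log2 fold change of -0.82 (SE 0.16) with edgeR's quasi-likelihood adjusted p at 0.116, the exact test's at 0.0102 and DESeq2's at 0.00125. The gene is long, and its value was -0.47 with the length trend removed. Dchs1 had a log2 fold change of -0.94 (SE 0.34), and its partner Fat4 had one of -0.59 (SE 0.37).

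The cytoskeletal and ciliary effectors, through which polarity reaches actin and cilia, had a median of -0.23 (-0.11 with the length trend removed) over 17 tested genes, 12 below 0 and 5 above. At an unadjusted p under 0.05, 5 were lower and 0 higher, against 12.2% and 11.0% of all tested genes. The small GTPase gene Rhoa was at 530 and 574 CPM in the saline pair and 624 and 559 CPM in the treated pair, with a log2 fold change of 0.10 (SE 0.16). Daam1, a formin that links Dishevelled to RHOA, had a log2 fold change of 0.08 (SE 0.17). The RHOA-dependent kinases had values of -0.08 (SE 0.16) for Rock1 and -0.52 (SE 0.22) for Rock2.

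The Scribble partners and the PAR and Crumbs complexes, which set the apical and basolateral sides of epithelial cells, held 17 tested genes, 10 below 0 and 7 above, with a median of -0.35 that was -0.037 with the length trend removed. Llgl1, the gene of a SCRIB partner, was lower in both treated samples, at 62.3 and 80.9 CPM against 125 and 122 CPM in the saline samples, a log2 fold change of -0.78 (SE 0.19, edgeR's quasi-likelihood test, adjusted p = 0.123; 0.0298 in the exact test and 0.0108 in DESeq2). The difference between Scrib and Llgl1 was not tested. Pard3, a scaffold of the apical complex, had a log2 fold change of -0.92 (SE 0.21, edgeR's quasi-likelihood test, adjusted p = 0.119; 0.0162 in the exact test and 0.00709 in DESeq2), with 104 and 149 CPM in the saline pair and 65.8 and 67.6 CPM in the treated pair. Dlg1 had a value of -0.35 (SE 0.17), or -0.08 with the length trend removed, and Llgl2 and Prkci were near 0, at 0.10 (SE 0.23) and 0.09 (SE 0.18). Crb3, named after its value was seen, was the highest of the list, with a log2 fold change of 2.22 (SE 0.72), at 3.31 and 0.539 CPM in the saline pair and 10.03 and 8.05 CPM in the treated pair. Its value ranged from 1.45 to 4.04 as single samples were left out, and its adjusted p was 0.152 in edgeR's quasi-likelihood test, 0.048 in the exact test and 0.0244 in DESeq2.

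The genes whose centered log2 CPM over the 4 samples lay nearest to the mean profile of the 10 members were Suz12, Hectd4, Etl4, Tsc22d2 and Eef2. Their Euclidean distances to that profile were between 0.0128 and 0.0349, against a median of 0.753 over the tested genes. These genes were picked as the nearest, so their small distances follow from the selection. The profile is a mean over members whose log2 fold changes ran from -1.44 to 0.83. The profile itself stood at 0.29 and 0.25 in the saline samples and at -0.35 and -0.19 in the treated samples, on the log2 scale around its mean. Suz12, a subunit of a histone methyltransferase complex, followed it most closely, at 139 and 134 CPM in the saline pair and 89.6 and 100.2 CPM in the treated pair. The 5 genes had log2 fold changes between -0.55 and -0.52. The likeness rests on 4 samples.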

How the data were processed

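RNA from 2 saline and 2 ADC/cmLumiOpto samples was sequenced after poly-T selection. The authors deposited counts, whole read numbers without normalization, for 56748 genes. The submitters' processing notes name HISAT2, HISAT, TopHat2 and mm39, whereas the methods name GRCm38; 0 of the 10 members have the start and end they have in the GENCODE annotation of GRCm38, so positions are printed as deposited. The counting program is not given in the sources used here. The methods describe more samples per group than the 2 analyzed here, and call them biological without saying whether each is 1 mouse, so p-values measure the spread between these samples, which may be technical.

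The fit used edgeR 4.0.16 under R 4.3.3 (filterByExpr with minimum count 10 and total 15, TMM, glmQLFit and glmQLFTest, Benjamini-Hochberg adjustment over 15320 genes, threshold 0.05). The prior count was 0.125 for fold changes and 2 for profiles. Levels are TMM-scaled CPM per kilobase of the listed gene length. Total counts were between 15263375 and 19675436, which sets the floor of 3 counts at 0.152 to 0.197 CPM without TMM scaling, for counting error only.

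The members and all lists were chosen with earlier results of these data known. Named genes were the 10 members, pathway and marker genes picked by role within the lists, and the 5 genes nearest to the mean profile of the members. Wnt4, Crb3, Invs, Cldn5 and Dnah5 were named after their values were seen. Alternatives were DESeq2 1.42.0, the edgeR exact test, other normalizations and filters, a replicate block, removal of the trend on gene length (lowess, span 0.3), and each sample left out. The fits were tested on simulated data.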

Additional observations from a re-analysis of the deposited data

How the results depend on the processing

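With 0 genes past the threshold in edgeR's quasi-likelihood test (1863 lower and 1690 higher at an unadjusted p under 0.05), DESeq2 gave 1353 genes, the exact test 1170, no expression filter 2259, and the samples left out in turn between 0 and 218 (218 without saline replicate 1, 10 without saline replicate 2, 5 without treated replicate 1). For the other planar cell polarity genes the 0 became 11 with DESeq2, 11 with the exact test, 12 without the filter and between 0 and 2 (without saline replicate 1) with samples left out. A replicate block gave 607 genes and 5 of these pathway genes. Deviations of same-numbered samples had a correlation of 0.0985 over genes, and the labels name nothing that pairs the samples, so the block was not used. The median log2 fold change of the members was -0.38 with the length trend removed and between -0.58 and -0.39 with samples left out, the last without treated replicate 1. That of the other pathway genes was -0.11 with the length trend removed and between -0.38 (without treated replicate 2) and -0.19 with samples left out. By span from start to end, in place of gene length, the highest member level in saline exceeded the lowest, then Ror1, by 119-fold. Of 168 values for single members and ratios under 12 settings, 10 moved beyond the replicate spread and 13 had another sign, in Celsr1, Scrib and the Fzd6 to Fzd3 ratio, whose reported log2 values were -0.03, 0.01 and -0.0066. The median of all genes was 0.11 with upper-quartile normalization and 0.10 without the filter. With a sample left out, the lone sample was assumed to vary like the other group. Celsr2 (28 to 71 counts) is limited most by depth.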
